A study of Mus musculus with 12 samples.

Results

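The 40 genes described here encode collagens and other proteins that fibroblasts lay down as extracellular matrix. They were taken by symbol from a list of names that was drawn up with earlier results of these data known, and each name matched 1 of the 55401 genes measured. The list holds 7 chains of fibrillar collagens, 5 collagen chains of basement membranes, 7 chains of other collagens, 12 matrix glycoproteins and proteoglycans, 3 enzymes that crosslink matrix fibres, and 6 markers of fibroblasts and contractile cells. RNA of oral tumours was sequenced in 12 libraries, 3 in each of 4 treatment groups. The tumours grew from MTC-Q1 cells, a mouse oral cancer line, placed in the buccal mucosa of C57BL/6 mice and, per the study's methods, mixed with Matrigel, an extract of basement membrane proteins. Treatment began once a tumour had reached 100 mm3, and the labels state 4 doses in one place and 6 doses in another. The labels name the same tumour line for all samples and give neither their sex nor their age at sampling.

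The control group (Ctrl-IgG) received an isotype control, described in its label as IgG1-Fc. The αCSF1R group received an antibody against CSF1R, the receptor through which macrophages receive their growth factor CSF1. The IL-10-Fc group received recombinant interleukin-10, a cytokine that restrains macrophages and acts on T cells, fused to an antibody Fc part. The BF10 group received the fusion of interleukin-10 with the antibody against CSF1R. The comparisons ask how the matrix genes of the tumour differed under each agent from the control, and how BF10 differed from either of its components. The labels do not say whether the 3 libraries of a group came from separate animals, so p-values measure the spread between these libraries, part of which may be technical.

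Fibrillar collagens are secreted by fibroblasts as trimers, trimmed outside the cell and assembled into the fibrils that give connective tissue its tensile strength, and lysyl oxidases then crosslink them. Type IV collagen forms the sheet of the basement membrane under epithelia and around vessels, fat and muscle, and other collagens tie this sheet to the fibrils. In carcinomas much of this matrix is made by activated fibroblasts, which are recognised by markers such as Fap and by the contractile proteins Acta2 and Tagln. The proteoglycans decorin, lumican and biglycan sit on collagen fibrils, and glycoproteins such as periostin and tenascin-C are made where matrix is being rebuilt. In whole tumour tissue, fewer cells of a type and less RNA per cell cannot be told apart.

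Levels are given in FPKM, fragments scaled by transcript length and by library size, and 2 differences between the libraries touched the members. In 4 libraries (BF10 replicate 1, both IL-10-Fc replicates 1 and 2, and replicate 2 of Ctrl-IgG) the FPKM sum was 819001 to 976949.8 and the mitochondrial share of it 6.57% to 9.04%, against 637596 to 701275 and 2.99% to 3.61% in the other 8. The 6 libraries of Ctrl-IgG and αCSF1R also stood apart from the 6 of IL-10-Fc and BF10 in genes that are not matrix genes. The keratin Krt8, a marker of simple epithelium, was at 0.06 to 0.28 FPKM in the former and 169 to 618 FPKM in the latter. Xist, the RNA that coats an inactive X chromosome, was at 0.01 to 0.04 FPKM and 17.1 to 30.7 FPKM. For any gene that differed between these 2 pairs of groups, called the 2 sides below, the treatment and whatever else set the sides apart, such as the host animals or the state of the tumour cells, cannot be told apart. Because of the first difference, each comparison is given below also without the 4 libraries of high sum, which leaves 1 IL-10-Fc library. This does not remove the difference between the sides.

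Each of the 40 genes was above 0 in all 12 libraries. The summed level of the 40 genes was 1426, 876 and 2506 FPKM in the 3 Ctrl-IgG libraries and 2448, 2778 and 2645 FPKM in αCSF1R. In IL-10-Fc it reached 4309.8, 3757 and 7949 FPKM and in BF10 4788, 6623 and 5696 FPKM. In these sums all 6 libraries of IL-10-Fc and BF10 lay above all 6 of the other groups. As a share of all FPKM the members held 0.107% in the lowest library and 1.21% in the highest, and by share IL-10-Fc replicate 2 at 0.385% lay below αCSF1R replicate 2 at 0.423%. Within IL-10-Fc, replicate 3 was the highest and was the only library of that group outside the 4 of high sum. The fibroblast and contractile markers alone summed to 95.9 to 137 FPKM in Ctrl-IgG, 145 to 155 FPKM in αCSF1R, 239.9 to 483 FPKM in IL-10-Fc and 285 to 337 FPKM in BF10. These sums, too, were higher in all 6 libraries of IL-10-Fc and BF10 than in the other 6.

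**Figure D1:**
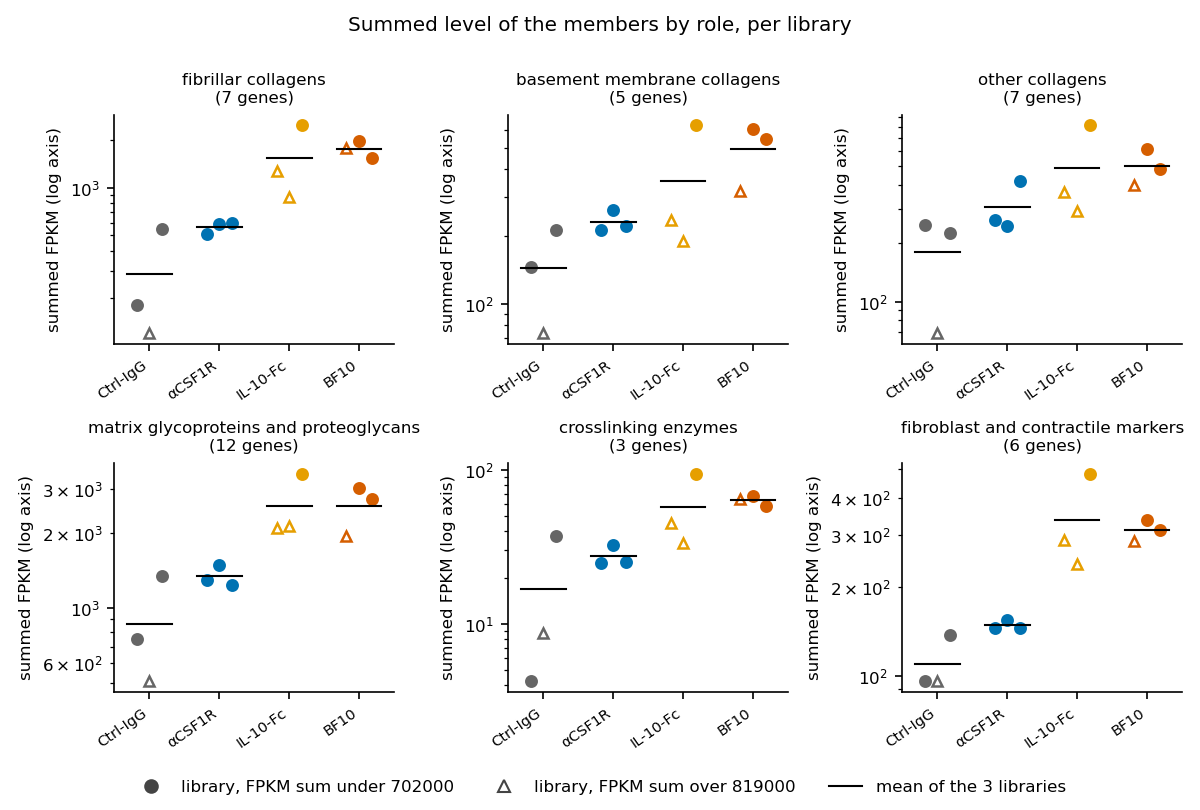
Summed FPKM of the members of each of 6 roles (log axis) in every library, by treatment group; triangles mark the 4 libraries with the highest FPKM sums and bars the mean of the 3 libraries. Fibrillar collagens reached 868 to 2460.2 FPKM in IL-10-Fc and BF10 and stayed under 594 FPKM in Ctrl-IgG and αCSF1R, whereas basement membrane collagens, other collagens and crosslinking enzymes overlapped between these sides.

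Differences were tested with limma on log2(FPKM + 1) over 15813 genes that reached 1 FPKM in at least 3 libraries, all 40 members among them, and calls required a fold change of at least 1.5 and an adjusted p below 0.05. Under BF10, 21 of the 40 members were called higher than in Ctrl-IgG and 1 lower, where 11.8% of all genes tested were called higher and 13.2% lower. Under IL-10-Fc, 19 were called higher and 2 lower, against 10.1% and 23.6% of all genes. Between αCSF1R and Ctrl-IgG no member was called, as was none of all genes tested (0.0%). Between BF10 and IL-10-Fc no member was called either, with 0.0126% of all genes called. BF10 against αCSF1R gave 10 calls among the 40 members, 9 higher and 1 lower, where 11.0% of all genes were called higher and 14.0% lower. With 25.0% of all genes called in either direction, the members were called about as often as any gene and differed in direction. With median-of-ratios scaling in place of FPKM as deposited, the split of all genes under IL-10-Fc was more even, 2534 higher and 2680 lower in place of 1597 and 3729, and that of the members was 28 and 0. The median log2 difference of the 40 members was 1.87 for BF10, 1.59 for IL-10-Fc and 0.97 for αCSF1R against Ctrl-IgG, beside -0.12, -0.39 and 0.11 over all genes tested. Differences below are on the log2(FPKM + 1) scale with their SE and the limma adjusted p over all genes.

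**Figure D2:**
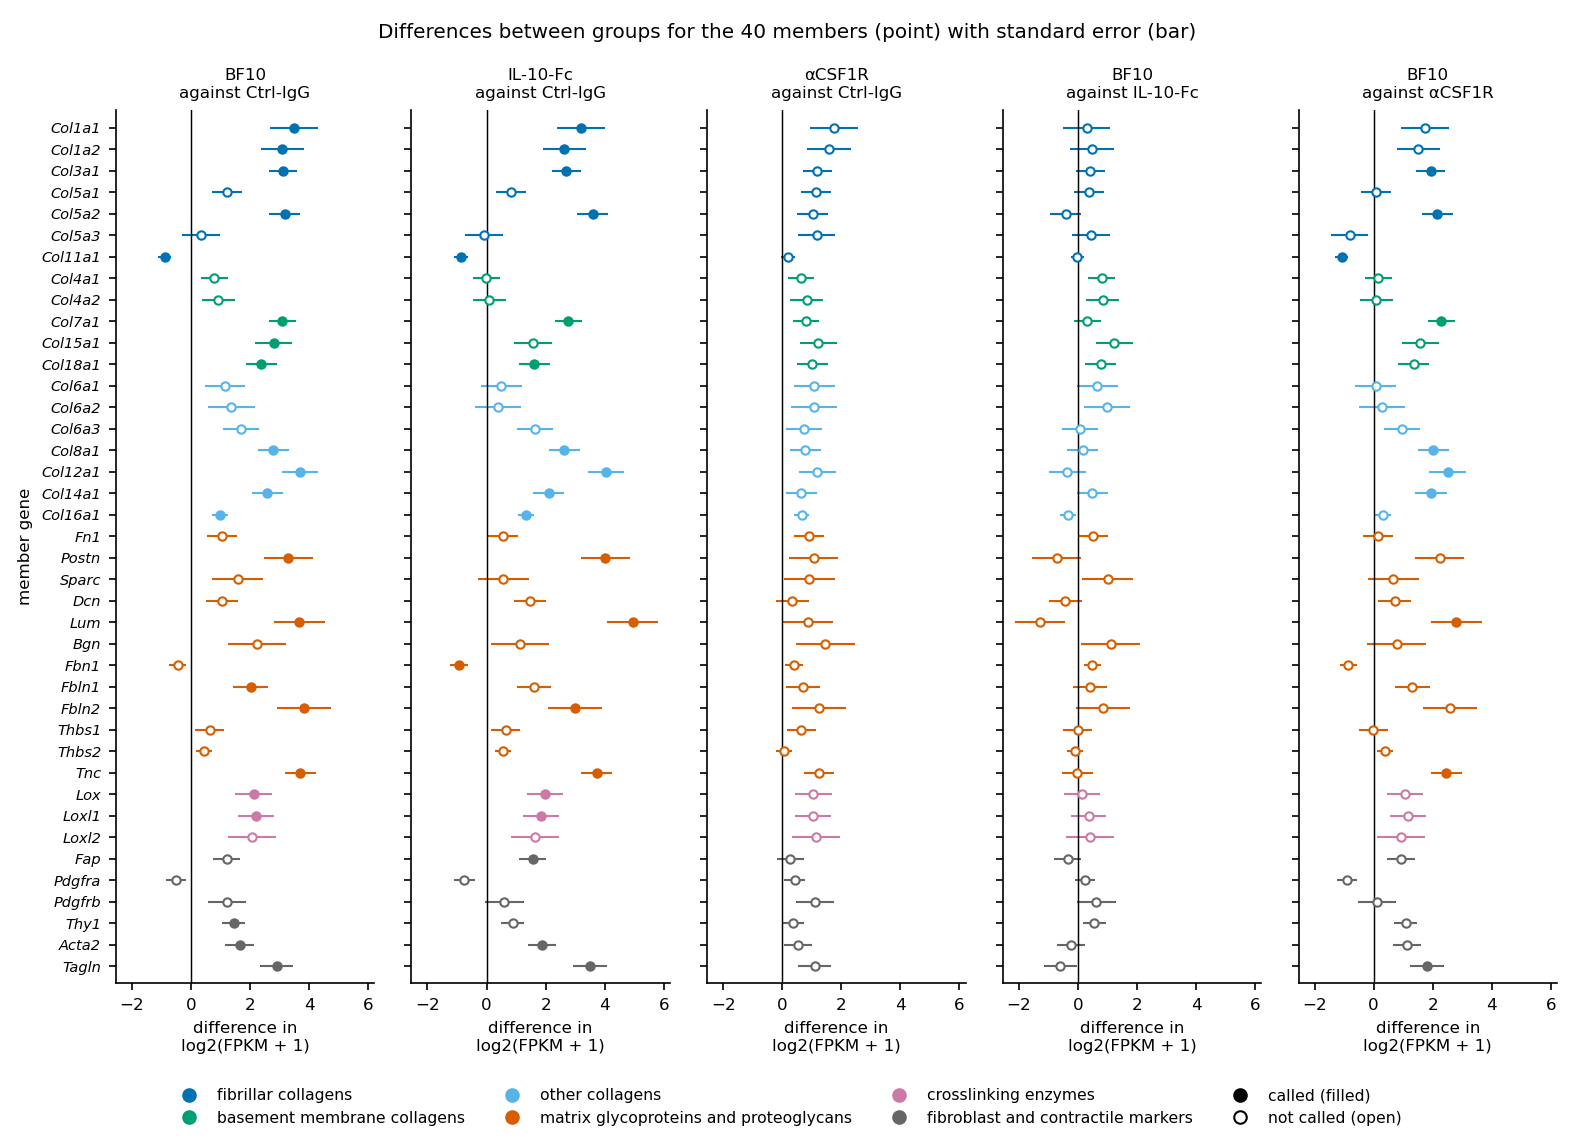
Difference in log2(FPKM + 1) of each of the 40 members in 5 comparisons, coloured by role; points are limma estimates, bars standard errors, and filled points are called genes. BF10 and IL-10-Fc against Ctrl-IgG show filled points from 0.98 to 4.95 beside the falls of Col11a1 and Fbn1, while the panels of αCSF1R against Ctrl-IgG and of BF10 against IL-10-Fc hold open points alone.

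Of the 7 fibrillar chains, 4 rose under BF10 and the same 4 under IL-10-Fc, Col11a1 fell, and 2 chains of type V collagen were not called. Col1a1 and Col1a2 encode the chains of type I collagen, the main fibril protein of skin, bone and scar. Col1a1 was at 14.1, 9.84 and 91.6 FPKM in Ctrl-IgG and 83.3, 99.5 and 66.6 FPKM in αCSF1R. It was at 162, 116 and 618 FPKM in IL-10-Fc and 149, 450.2 and 321 FPKM in BF10. Every library of IL-10-Fc and BF10 lay above every library of the other groups, and Ctrl-IgG replicate 3 stood well above its 2 partners. The difference from Ctrl-IgG was 3.50 ± 0.81 (SE, adjusted p = 0.009) under BF10 and 3.20 ± 0.81 (SE, adjusted p = 0.0114) under IL-10-Fc. Col1a2 moved by 3.10 and 2.63 (adjusted p = 0.0104 and adjusted p = 0.0186), while Col1a1 ranged 62.8-fold from the lowest library to the highest. Both genes were called in all 19 alternatives under BF10. Under IL-10-Fc neither was called with the groups fitted alone (limma adjusted p = 0.0583 for Col1a1 and 0.081 for Col1a2). The ratio of Col1a1 to Col1a2 was 0.509 to 0.742 in Ctrl-IgG and αCSF1R and 0.755 to 1.08 in IL-10-Fc and BF10, without overlap. Col3a1, the chain of type III collagen that shares fibrils with type I, was at 76.6, 53.1 and 220.2 FPKM in Ctrl-IgG and 177, 211 and 291 FPKM in αCSF1R. It was at 696, 407 and 894 FPKM in IL-10-Fc and 1121, 809.5 and 674 FPKM in BF10. It was the most abundant fibrillar chain by FPKM in each library, and its sides did not overlap. The gain was 3.12 ± 0.48 (SE, adjusted p = 0.00102) under BF10 and 2.7 ± 0.48 (SE, adjusted p = 0.00179) under IL-10-Fc.

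Type V collagen controls the width of fibrils, and its chains differed among themselves. Col5a2 was at 5.03, 14.1 and 31.9 FPKM in Ctrl-IgG and 26.8, 34.2 and 25.1 FPKM in αCSF1R. It was at 197, 173 and 154 FPKM in IL-10-Fc and 219.7, 117 and 85.2 FPKM in BF10. The sides were apart, with a difference of 3.19 ± 0.52 (SE, adjusted p = 0.00145) under BF10 and 3.60 ± 0.52 (SE, adjusted p = 0.000528) under IL-10-Fc. Col5a1 ranged from 15.5 to 129 FPKM, with BF10 above Ctrl-IgG and IL-10-Fc overlapping it, and was not called (1.22 ± 0.51 SE, adjusted p = 0.112 under BF10 and 0.83 ± 0.51 SE, adjusted p = 0.229 under IL-10-Fc). Col5a3 gave 0.35 ± 0.64 under BF10 and -0.09 ± 0.64 under IL-10-Fc, with no call. Col11a1, a chain of type XI collagen known from cartilage fibrils and tumour stroma, was at 2.93, 3.36 and 4.24 FPKM in Ctrl-IgG and 3.93, 3.95 and 4.59 FPKM in αCSF1R. It was at 1.48, 1.22 and 1.69 FPKM in IL-10-Fc and 2.10, 0.88 and 1.45 FPKM in BF10. It was the lowest member on the FPKM scale in IL-10-Fc and BF10, and it was lower there than in any library of the other groups. Col11a1 fell by 0.88 ± 0.23 (SE) under BF10 (limma adjusted p = 0.0154) and by 0.87 ± 0.23 under IL-10-Fc (adjusted p = 0.0138). Under BF10 the call was made in 15 of 18 alternatives, not without Ctrl-IgG replicate 3, without BF10 replicate 2 or with the groups fitted alone (adjusted p at most 0.0786), and under IL-10-Fc in 10 of 18.

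The sequences before 3 of these genes are shown because Col1a2 and Col3a1 rose in the groups in which Col11a1 fell. They are the 150 bases upstream of the RefSeq transcript start on GRCm38.p6, plus strand, 5′ to 3′, in lower case with the motifs found in capitals. The CCAAT box and the GC box (GGGCGG) were searched on both strands. The TATA motif was TATAAA, or alternatively TATATA, on either strand, and matches to these can overlap.
Col1a2 (chr6:4505468-4505617): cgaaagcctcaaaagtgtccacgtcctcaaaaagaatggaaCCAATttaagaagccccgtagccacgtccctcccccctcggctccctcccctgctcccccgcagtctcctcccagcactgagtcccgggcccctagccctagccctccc
Col3a1 (chr1:45311388-45311537): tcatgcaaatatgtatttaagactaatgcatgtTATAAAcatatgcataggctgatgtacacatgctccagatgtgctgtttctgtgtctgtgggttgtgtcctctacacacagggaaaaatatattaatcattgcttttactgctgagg
Col11a1 (chr3:114030390-114030539): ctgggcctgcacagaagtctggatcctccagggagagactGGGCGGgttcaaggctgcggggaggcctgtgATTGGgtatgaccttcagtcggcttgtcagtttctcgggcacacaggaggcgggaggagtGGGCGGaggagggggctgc
The Col1a2 window held CCAAT from position -109, the Col3a1 window TATAAA from -117, and the Col11a1 window CCAAT on the other strand (ATTGG) from -79 and GGGCGG from -110 and -19, counted from the start as the base after -1. Such windows were at hand for 25 of the 40 members, of which 7 held CCAAT, 11 GGGCGG and 4 a TATA motif. Over all 32851 windows of the same length, 24.5% held CCAAT, 28.6% GGGCGG and 9.48% a TATA motif. A match is a description of letters and not a binding site.

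Of the basement membrane collagens, Col7a1, Col15a1 and Col18a1 were called higher under BF10, and Col7a1 and Col18a1 under IL-10-Fc, while Col4a1 and Col4a2 were not called. Col7a1, whose collagen forms the anchoring fibrils that fasten epithelium to the tissue below, was at 24.5, 10.8 and 33.4 FPKM in Ctrl-IgG and 34.8, 43.2 and 33.9 FPKM in αCSF1R. It was at 107, 106 and 282 FPKM in IL-10-Fc and 134, 239 and 198 FPKM in BF10. The lowest library of IL-10-Fc and BF10 was well above the highest of the other groups. Col7a1 differed from Ctrl-IgG by 3.09 ± 0.45 (SE, adjusted p = 0.000744) under BF10 and 2.77 ± 0.45 (SE, adjusted p = 0.00105) under IL-10-Fc, and it was called in all 19 alternatives of both comparisons. Col15a1, a collagen between basement membrane and fibrils, was at 4.88, 2.69 and 14.0 FPKM in Ctrl-IgG and 15.1, 20.5 and 11.1 FPKM in αCSF1R. It was at 15.2, 9.44 and 50 FPKM in IL-10-Fc and 28.2, 68.4 and 54.0 FPKM in BF10. BF10 lay above Ctrl-IgG and αCSF1R, whereas IL-10-Fc replicates 1 and 2 did not exceed αCSF1R replicate 2. Col15a1 differed by 2.81 ± 0.63 (SE, adjusted p = 0.00791) under BF10 and by 1.57 ± 0.63 (SE, adjusted p = 0.0763) under IL-10-Fc, the latter without a call and the difference between the agents not called either (1.23 ± 0.63, adjusted p = 0.478). Col18a1, the source of the vessel-restraining fragment endostatin, differed by 2.39 ± 0.53 (SE, adjusted p = 0.0074) and 1.62 ± 0.53 (SE, adjusted p = 0.0367).

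Col4a1 and Col4a2, the main chains of type IV collagen in basement membranes, were called in neither comparison. Col4a1 was at 69.2, 39.5 and 93.5 FPKM in Ctrl-IgG and 91.4, 107 and 100.2 FPKM in αCSF1R. It was at 53.0, 37.0 and 129.8 FPKM in IL-10-Fc and 76.2, 135 and 134 FPKM in BF10. The 3 lowest values were those of the libraries of high sum in IL-10-Fc and Ctrl-IgG, and both agents overlapped Ctrl-IgG. Its difference from Ctrl-IgG was 0.80 ± 0.45 (SE, adjusted p = 0.232) under BF10 and -0.00 ± 0.45 (SE, adjusted p = 0.998) under IL-10-Fc. Col4a2, whose chain joins that of Col4a1, kept a ratio of Col4a1 to Col4a2 of 1.82 to 2.79 in all libraries. Without the 4 libraries of high sum, Col4a1 was called under BF10 (0.74 ± 0.15, adjusted p = 0.00756) and, on 1 library, under IL-10-Fc (0.68 ± 0.18, adjusted p = 0.0239).

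Among the other collagens, Col8a1, Col12a1, Col14a1 and Col16a1 were called higher under both agents and the 3 chains of type VI collagen under neither. Col12a1, a collagen that decorates the surface of type I fibrils, was at 2.37, 4.59 and 18.3 FPKM in Ctrl-IgG and 21.3, 19.1 and 8.68 FPKM in αCSF1R. It was at 87.0, 80.8 and 231 FPKM in IL-10-Fc and 104, 99.0 and 74.5 FPKM in BF10. The sides were far apart, and the difference of 4.06 ± 0.61 (SE, adjusted p = 0.00067) under IL-10-Fc was the largest of any collagen, beside 3.70 ± 0.61 (SE, adjusted p = 0.00152) under BF10. Col14a1, a relative of Col12a1 with the same place on fibrils, was at 0.12, 0.85 and 4.39 FPKM in Ctrl-IgG and 2.97, 3.81 and 1.22 FPKM in αCSF1R. It was at 10.9, 5.05 and 11.2 FPKM in IL-10-Fc and 11.3, 14.7 and 11.6 FPKM in BF10. It differed by 2.59 ± 0.53 (SE, adjusted p = 0.00481) and 2.10 ± 0.53 (SE, adjusted p = 0.0114). Col8a1, a network collagen found under endothelium, differed by 2.79 ± 0.53 (SE, adjusted p = 0.00315) and 2.63 ± 0.53 (SE, adjusted p = 0.00328). Col16a1 had the smallest called rise, 0.98 ± 0.27 (SE, adjusted p = 0.022) under BF10, which lost its call without the 4 libraries of high sum, where it was 0.49 with a fold under 1.5, and 1.33 ± 0.27 (SE, adjusted p = 0.00365) under IL-10-Fc. The type VI chains, which form beaded filaments around cells, gave 1.16 to 1.71 under BF10 and 0.39 to 1.64 under IL-10-Fc, with the smallest adjusted p at 0.0592 for Col6a3 under IL-10-Fc. Col6a1 was at 111, 17.2 and 78.3 FPKM in Ctrl-IgG and 100.4, 80.1 and 185 FPKM in αCSF1R. It was at 78.2, 34.8 and 161 FPKM in IL-10-Fc and 85.2, 164 and 126 FPKM in BF10. The lowest Col6a1 value was that of Ctrl-IgG replicate 2, and αCSF1R replicate 3 held the highest.

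**Figure D3:**
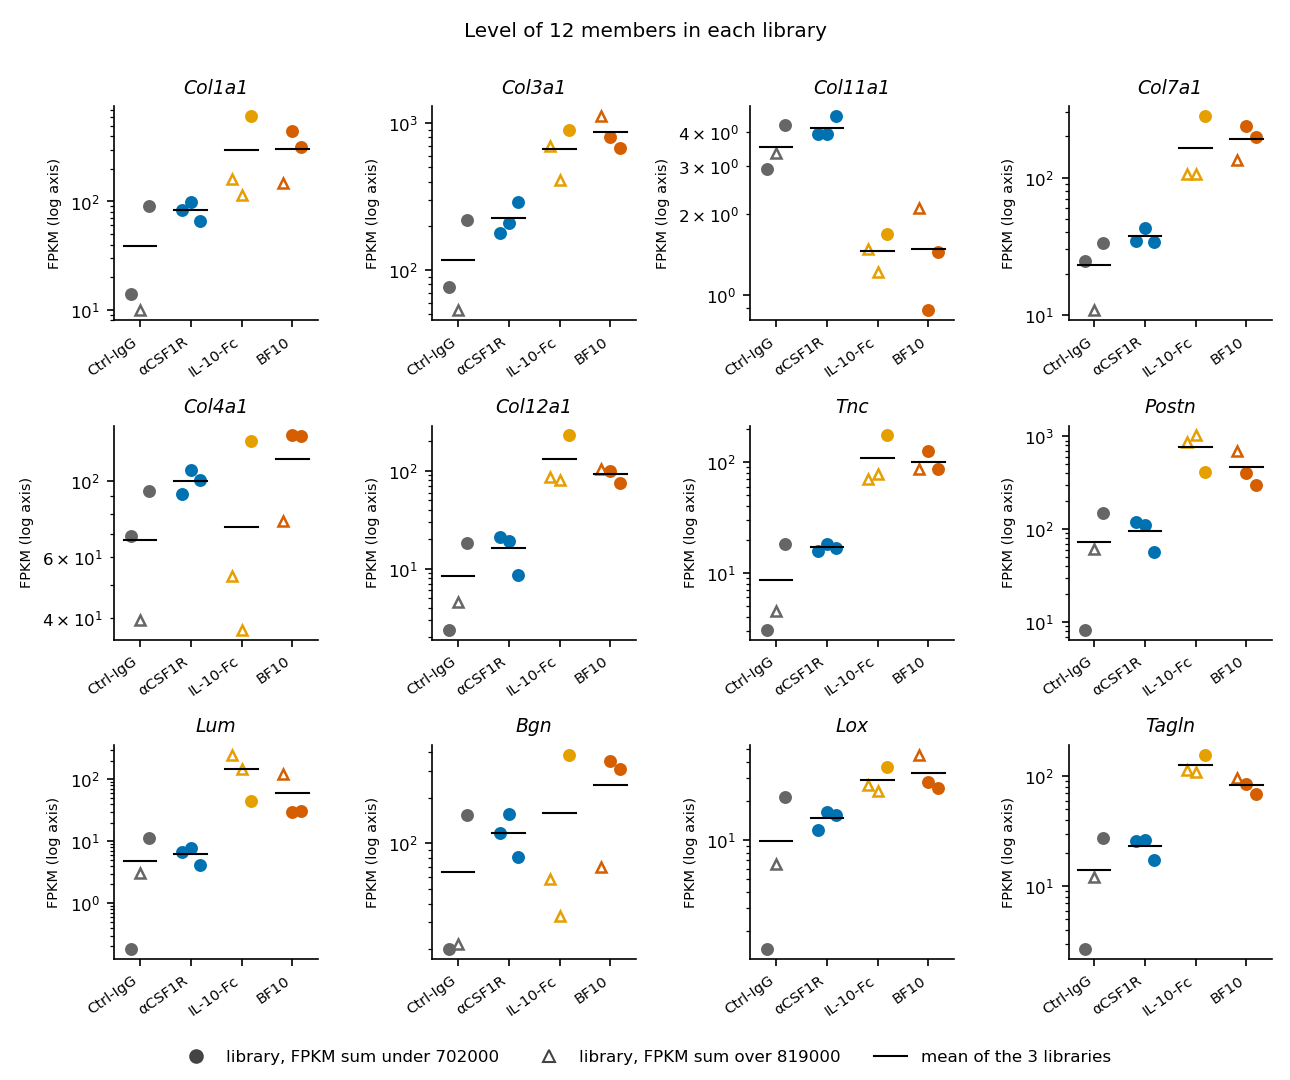
FPKM of 12 members in every library (log axes, each with its own scale), by treatment group; triangles mark the 4 libraries with the highest FPKM sums and bars the mean of the 3 libraries. Col3a1, Col7a1, Col12a1, Tnc and Tagln separate IL-10-Fc and BF10 from the other groups, Col11a1 does so in the other direction, and Col4a1 and Bgn do not separate them.

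The matrix glycoproteins held 5 of the 21 rises under BF10 and 4 of the 19 under IL-10-Fc, and in each comparison 7 of the 12 were not called. Tnc, encoding tenascin-C, a glycoprotein of wounds and tumour stroma, was at 3.06, 4.50 and 18.4 FPKM in Ctrl-IgG and 15.9, 18.2 and 16.9 FPKM in αCSF1R. It was at 71.1, 78.7 and 175 FPKM in IL-10-Fc and 86.6, 125 and 87.0 FPKM in BF10. All 6 values of IL-10-Fc and BF10 were above 71 FPKM and all others under 19 FPKM. The difference was 3.71 ± 0.52 (SE, adjusted p = 0.00059) under BF10 and 3.73 ± 0.52 (SE, adjusted p = 0.000409) under IL-10-Fc, with a call in all 19 alternatives. Postn, encoding periostin, a glycoprotein that binds collagen, was at 8.25, 61.6 and 148 FPKM in Ctrl-IgG and 121, 112 and 57.0 FPKM in αCSF1R. It was at 873, 1027 and 409 FPKM in IL-10-Fc and 690.4, 400.0 and 298 FPKM in BF10. The Ctrl-IgG libraries were spread widely, with replicate 1 lowest, and the sides were apart. Postn differed by 3.30 ± 0.83 (SE, adjusted p = 0.0138) and 4.02 ± 0.83 (SE, adjusted p = 0.00394), and it was not called without the 4 libraries of high sum (3.22 ± 1.19, adjusted p = 0.0603 and 3.46 ± 1.46, adjusted p = 0.0963). Fbln2, encoding fibulin-2 of elastic fibres and basement membranes, was at 8.37, 3.02 and 34.4 FPKM in Ctrl-IgG and 23.4, 29.3 and 22.3 FPKM in αCSF1R. It was at 42.0, 45.4 and 331 FPKM in IL-10-Fc and 62.9, 280.4 and 209 FPKM in BF10. Its differences were 3.82 ± 0.91 (SE, adjusted p = 0.0107), the largest of all members under BF10, and 2.99 ± 0.91 (SE, adjusted p = 0.0276). Fbln1 was called under BF10 and not under IL-10-Fc (2.03 ± 0.58 SE, adjusted p = 0.0261 and 1.61 ± 0.58 SE, adjusted p = 0.053).

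Postn rose with Col1a2 and Col3a1, and the 150 bases before its RefSeq start on GRCm38.p6 are shown for comparison with theirs.
Postn (chr3:54360957-54361106): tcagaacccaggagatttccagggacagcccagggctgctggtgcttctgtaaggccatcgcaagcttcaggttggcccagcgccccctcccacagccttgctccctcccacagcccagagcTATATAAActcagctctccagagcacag
The capitals mark overlapping TATATA and TATAAA, from positions -28 and -26, on the plus strand.

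Fibronectin, Sparc and the thrombospondins were not called. Fn1, encoding fibronectin, the scaffold on which cells assemble collagen, was at 412, 203 and 388 FPKM in Ctrl-IgG and 554, 665 and 572 FPKM in αCSF1R. It was at 259, 404 and 979 FPKM in IL-10-Fc and 353, 876 and 934 FPKM in BF10. Its groups overlapped, with 1.05 ± 0.51 (SE, adjusted p = 0.163) under BF10 and 0.55 ± 0.51 (SE, adjusted p = 0.413) under IL-10-Fc. Without the 4 libraries of high sum Fn1 was called in both (1.18 ± 0.11, adjusted p = 0.000805 and, on 1 library, 1.29 ± 0.14, adjusted p = 0.00154). Sparc, a collagen-binding glycoprotein needed for fibril assembly, was at 191, 52.2 and 338 FPKM in Ctrl-IgG and 283, 304 and 269 FPKM in αCSF1R. It was at 118, 110.2 and 863 FPKM in IL-10-Fc and 189.7, 751 and 649 FPKM in BF10. The 4 libraries of high sum held its 4 lowest values. Thbs1 and Thbs2 gave 0.64 and 0.45 under BF10 and 0.65 and 0.55 under IL-10-Fc. Fbn1, encoding fibrillin-1 of microfibrils, was at 19.1, 19.1 and 27.4 FPKM in Ctrl-IgG and 27.6, 30.8 and 28.2 FPKM in αCSF1R. It was at 9.66, 7.25 and 17.6 FPKM in IL-10-Fc and 12.5, 16.5 and 18.2 FPKM in BF10. All 6 libraries of IL-10-Fc and BF10 lay below all others, but only the fall by 0.94 ± 0.30 under IL-10-Fc was called (limma adjusted p = 0.0324, and no call in 13 of 19 alternatives), beside -0.45 ± 0.30 under BF10 (adjusted p = 0.321).

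Of the 3 small leucine-rich proteoglycans, Lum was called and Dcn and Bgn were not. Lum, encoding lumican, which spaces collagen fibrils, was at 0.18, 3.08 and 11.1 FPKM in Ctrl-IgG and 6.61, 7.86 and 4.20 FPKM in αCSF1R. It was at 249, 147 and 45.2 FPKM in IL-10-Fc and 123, 29.8 and 30.2 FPKM in BF10. The sides were apart, and Lum showed the largest difference of any member under IL-10-Fc, 4.95 ± 0.86 (SE, adjusted p = 0.00153), beside 3.67 ± 0.86 (SE, adjusted p = 0.00982) under BF10. Dcn, encoding decorin, was at 36.2, 64.8 and 141 FPKM in Ctrl-IgG and 76.3, 90.1 and 100.1 FPKM in αCSF1R. It was at 338, 201 and 108 FPKM in IL-10-Fc and 275, 93.1 and 119 FPKM in BF10. Groups overlapped and no difference was called, 1.05 ± 0.55 (SE, adjusted p = 0.201) under BF10 and 1.48 ± 0.55 (SE, adjusted p = 0.0599) under IL-10-Fc. Bgn, encoding biglycan, was at 20.0, 21.5 and 154 FPKM in Ctrl-IgG and 117, 156 and 80.6 FPKM in αCSF1R. It was at 57.7, 33.1 and 385 FPKM in IL-10-Fc and 69.4, 351 and 311 FPKM in BF10. The 3 highest values of Bgn belonged to IL-10-Fc replicate 3 and BF10 replicates 2 and 3, the other libraries of these groups lying within the range of Ctrl-IgG. Neither difference was called (2.24 ± 1.00 SE, adjusted p = 0.131 and 1.13 ± 1.00 SE, adjusted p = 0.395). The ratio of Dcn to Bgn was 0.265 to 1.81 in the 8 libraries of lower sum and 3.01 to 6.09 in the 4 of high sum, with no overlap.

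Of the 3 crosslinking enzymes, Lox and Loxl1, which oxidise lysine side chains of collagen and elastin, were called under both agents. Lox was at 1.44, 6.58 and 21.3 FPKM in Ctrl-IgG and 11.9, 16.4 and 15.6 FPKM in αCSF1R. It was at 26.5, 23.8 and 36.6 FPKM in IL-10-Fc and 45.3, 27.8 and 24.9 FPKM in BF10. Ctrl-IgG replicate 3 was close to the lowest library of IL-10-Fc, and the sides were just apart. Lox differed by 2.13 ± 0.62 (SE, adjusted p = 0.0273) and 1.98 ± 0.62 (SE, adjusted p = 0.0295), calls made in 11 of 19 and 9 of 19 alternatives. Loxl1 differed by 2.21 ± 0.60 (SE, adjusted p = 0.0204) and 1.85 ± 0.60 (SE, adjusted p = 0.0358). Loxl2, which crosslinks type IV collagen, was at 1.45, 0.39 and 5.20 FPKM in Ctrl-IgG and 5.33, 6.45 and 3.91 FPKM in αCSF1R. It was at 3.54, 3.44 and 31.1 FPKM in IL-10-Fc and 3.95, 20.5 and 13.5 FPKM in BF10. It ranged 79.6-fold over the 12 libraries and was not called (2.06 ± 0.81 SE, adjusted p = 0.09 and 1.65 ± 0.81 SE, adjusted p = 0.14).

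Of the cell markers, the contractile pair rose under both agents and the growth factor receptors were not called. Acta2, smooth muscle actin, was at 7.78, 35.2 and 33.5 FPKM in Ctrl-IgG and 31.9, 32.4 and 28.6 FPKM in αCSF1R. It was at 75.5, 56.8 and 122 FPKM in IL-10-Fc and 68.5, 67.5 and 70.4 FPKM in BF10. BF10 held 3 nearly equal values, all above the Ctrl-IgG range. The difference was 1.65 ± 0.48 (SE, adjusted p = 0.0266) under BF10 and 1.88 ± 0.48 (SE, adjusted p = 0.0116) under IL-10-Fc. Tagln, encoding the actin-binding protein transgelin, was at 2.67, 12.2 and 27.1 FPKM in Ctrl-IgG and 25.6, 26.5 and 17.2 FPKM in αCSF1R. It was at 113, 109 and 157 FPKM in IL-10-Fc and 95.1, 85.3 and 68.3 FPKM in BF10. Tagln differed by 2.91 ± 0.57 (SE, adjusted p = 0.00384) and 3.50 ± 0.57 (SE, adjusted p = 0.00101), and was called in all alternatives of both comparisons. Fap, a surface protease of activated fibroblasts, was at 1.79, 2.26 and 2.93 FPKM in Ctrl-IgG and 2.73, 4.09 and 2.37 FPKM in αCSF1R. It was at 14.7, 12.5 and 3.33 FPKM in IL-10-Fc and 10.7, 5.90 and 4.52 FPKM in BF10. Its rise was called under IL-10-Fc (1.56 ± 0.46 SE, adjusted p = 0.0238) and not under BF10 (1.21 ± 0.46 SE, adjusted p = 0.08), yet the remaining IL-10-Fc library without the 4 of high sum gave 0.39 ± 0.33, adjusted p = 0.376.

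Thy1, a surface protein of fibroblasts and also of T cells, was called under BF10 (1.45 ± 0.39 SE, adjusted p = 0.019), with 97.9 to 145 FPKM there and 30.9 to 60.2 FPKM in Ctrl-IgG, but not under IL-10-Fc (0.89 ± 0.39 SE, adjusted p = 0.0996). Pdgfra, the receptor that marks resting and activated fibroblasts, was at 16.2, 14.0 and 17.6 FPKM in Ctrl-IgG and 18.6, 20.9 and 25.5 FPKM in αCSF1R. It was at 5.99, 7.19 and 16.8 FPKM in IL-10-Fc and 7.92, 12.4 and 13.3 FPKM in BF10. Its differences were negative, -0.49 ± 0.34 under BF10 and -0.75 ± 0.34 under IL-10-Fc, without a call (limma adjusted p = 0.339 and 0.112). Pdgfrb, the receptor of pericytes and fibroblasts, gave 1.23 ± 0.65 and 0.61 ± 0.65 without a call (adjusted p = 0.202 and 0.483). The markers thus differed in their order by group, with Pdgfra highest in αCSF1R and Tagln highest in IL-10-Fc.

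BF10 and IL-10-Fc, which share the Ctrl-IgG libraries as their reference, were called higher for 18 of the same members. These were Col1a1, Col1a2, Col3a1, Col5a2, Col7a1, Col8a1, Col12a1, Col14a1, Col16a1, Col18a1, Postn, Lum, Fbln2, Tnc, Lox, Loxl1, Acta2 and Tagln. Col15a1, Fbln1 and Thy1 were called higher under BF10 and not IL-10-Fc, Fap under IL-10-Fc and not BF10, and 16 members were called in neither. Of all genes tested, 11.8% were called higher under BF10 and 10.1% under IL-10-Fc. The share called higher under both was not computed, so the 18 shared members have no such share beside them. In the direct comparison of BF10 with IL-10-Fc, 27 of 40 members were higher under BF10 and none reached an unadjusted limma p under 0.05, with a smallest adjusted p of 0.478. The median difference was 0.37, beside 0.34 over all genes tested. Lum was lowest at -1.28 ± 0.86 and Col15a1 highest at 1.23 ± 0.63. The libraries of the 2 groups did not overlap for Col14a1, which was higher under BF10, and Tagln, which was lower, where 5.18% of all genes did not overlap. Within title codes C1 to C4, whose meaning the labels do not give, 35 of 40 members were higher under BF10 (1 library against 2), and within C5 to C7 35 were lower (2 libraries against 1). IL-10-Fc replicate 3, the library of highest member level, was the lone IL-10-Fc library in the latter set. In these 2 groups the libraries of C1 to C4 were also those of high sum, so title code and FPKM sum cannot be told apart here. The fit without the 4 libraries of high sum compared the libraries of C5 to C7 again, and its median of -0.37 is not a further result.

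Under αCSF1R all 40 members had a mean log2 value above Ctrl-IgG, by 0.08 for Thbs2 to 1.75 for Col1a1, and none was called. The smallest adjusted p was 0.959 with limma, with 4 members (Col3a1, Col5a1, Col16a1 and Tnc) and 437 of all genes at an unadjusted p under 0.05. Col5a1, as an example, was at 69.2, 65.1 and 77.1 FPKM in αCSF1R against 39.6, 15.5 and 50.3 FPKM in Ctrl-IgG. In 9 members the αCSF1R libraries lay wholly above Ctrl-IgG and in none below, where 8.87% of all genes were above and 6.04% below. These were Col5a1, Col5a3, Col7a1, Col16a1, Col18a1, Fn1, Fbn1, Pdgfra and Pdgfrb. The direction was not the same in the 2 sets of title codes, with 39 of 40 members higher within C1 to C4 (2 libraries against 2, median 1.47) and 17 of 40 within C5 to C7 (1 library against 1, median -0.17). Ctrl-IgG replicate 3, the control of the latter set, had the highest matrix sum of its group. Leaving out the 4 libraries of high sum removed Ctrl-IgG replicate 2, which had the lowest matrix sum. The median difference of the members was then 0.525 in place of 0.972, beside 0.0025 over all genes, and no member was called.

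BF10 against αCSF1R compared the fusion with its antibody component. Col3a1, Col5a2, Col7a1, Col8a1, Col12a1, Col14a1, Lum, Tnc and Tagln were called higher and Col11a1 lower. Tnc differed by 2.46 ± 0.52 (SE, adjusted p = 0.00572) and Col7a1 by 2.29 ± 0.45 (SE, adjusted p = 0.00409), and with the fall of Col11a1 by 1.09 ± 0.23 (adjusted p = 0.00544) these were the 3 calls given by each alternative in which the gene was tested. Col1a1 was 1.75 ± 0.81 higher without a call (adjusted p = 0.14), although its groups did not overlap. Pdgfra was at -0.91 ± 0.34 and Fbn1 at -0.85 ± 0.30, also without overlap and without a call (adjusted p = 0.074 and 0.0587). Lack of overlap was common in this comparison, with 55.7% of all genes tested and 65% of the members. The count of calls was 5 without αCSF1R replicate 3, and 6 without αCSF1R replicate 1 or without BF10 replicate 2. The share of all genes called fell as well, from 25.0% to 18.6%, 15.8% and 16.6% in these fits. Without the 4 libraries of high sum the count of members was 19, while the share of all genes called rose from 25.0% to 40.6%. Of these, 16 were higher and 3 lower, with Col1a1, Col15a1, Col18a1, Fbln2 and Thy1 among the former, Fbn1 and Pdgfra beside Col11a1 among the latter, and Col5a2, Lum and Tagln no longer called. Within title codes, 25 of 40 members were higher in C1 to C4 (1 library against 2) and 32 in C5 to C7 (2 against 1).

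For the comparisons with Ctrl-IgG, leaving out the 4 libraries of high sum raised the calls to 28 under BF10 (27 higher) and 25 under IL-10-Fc (25 higher), where the share of all genes called rose too, from 24.9% to 40.4% and from 33.7% to 39.7%, the latter count resting on 1 library that is assumed to vary like the others. Bgn, Fn1, Sparc, Loxl2 and Pdgfrb were among the members then called higher under BF10, and Col16a1, Postn, Fbln1, Lox and Loxl1 were no longer called. Of the latter, Fbln1 at 1.96 ± 0.68, Loxl1 at 1.98 ± 0.69 and Lox at 1.89 ± 0.92 kept differences near those of the full set (adjusted p = 0.05, 0.0507 and 0.128), and Col16a1 did not. Within title codes C1 to C4, 37 members were higher under BF10 (1 library against 2) and 34 under IL-10-Fc (2 against 2). Within C5 to C7 the counts were 34 (2 libraries against 1) and 36 (1 against 1). The share of all genes higher within these codes was not computed. Over all 12 libraries, 15 members separated IL-10-Fc and BF10 from Ctrl-IgG and αCSF1R upward without overlap and 2 downward (Col11a1 and Fbn1), where 9.73% of all genes tested were apart upward and 17.6% downward. Without the 4 libraries of high sum these numbers were 29 and 2, beside 25.4% and 36.8% of all genes.

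The libraries of high sum differed from the others of their group in most members, and the size of the difference went with the base composition of the gene. In Ctrl-IgG, IL-10-Fc and BF10, 33, 34 and 29 of the 40 members were lower in the libraries of high sum than in the rest of the group, with median log2 differences of -0.97, -1.43 and -0.56, beside -0.31, -0.52 and -0.34 over 15795 genes. Across the 40 members, the difference correlated with the percentage of G and C bases in the longest transcript at r = -0.674, -0.627 and -0.573, where all genes gave -0.563, -0.433 and -0.364. These are descriptions across genes that share the same few libraries. Of the 26 members with at least 50% G and C, 25, 25 and 23 were lower in the libraries of high sum, and of the 14 members below 50%, 8, 9 and 6 were. Lum, Fap, Dcn and Postn, all between 41.8% and 44.1%, were higher in the libraries of high sum of IL-10-Fc and of BF10. Lox, in the same range at 43.89%, was higher in that of BF10 (0.762) and lower in those of IL-10-Fc (-0.526). Bgn at 52.5% had the most negative difference, -3.11 in IL-10-Fc and -2.24 in BF10. The part of base composition in the group differences was not tested beyond a refit after removal of the trend with G and C content, which was chosen after seeing the data. It gave 29, 30, 0, 0 and 21 called members for the 3 agents (BF10, IL-10-Fc, αCSF1R) against the control and for BF10 against each of IL-10-Fc and αCSF1R. In the same refit, 33.1%, 37.7%, 0.0%, 0.0253% and 32.9% of all genes were called.

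**Figure D4:**
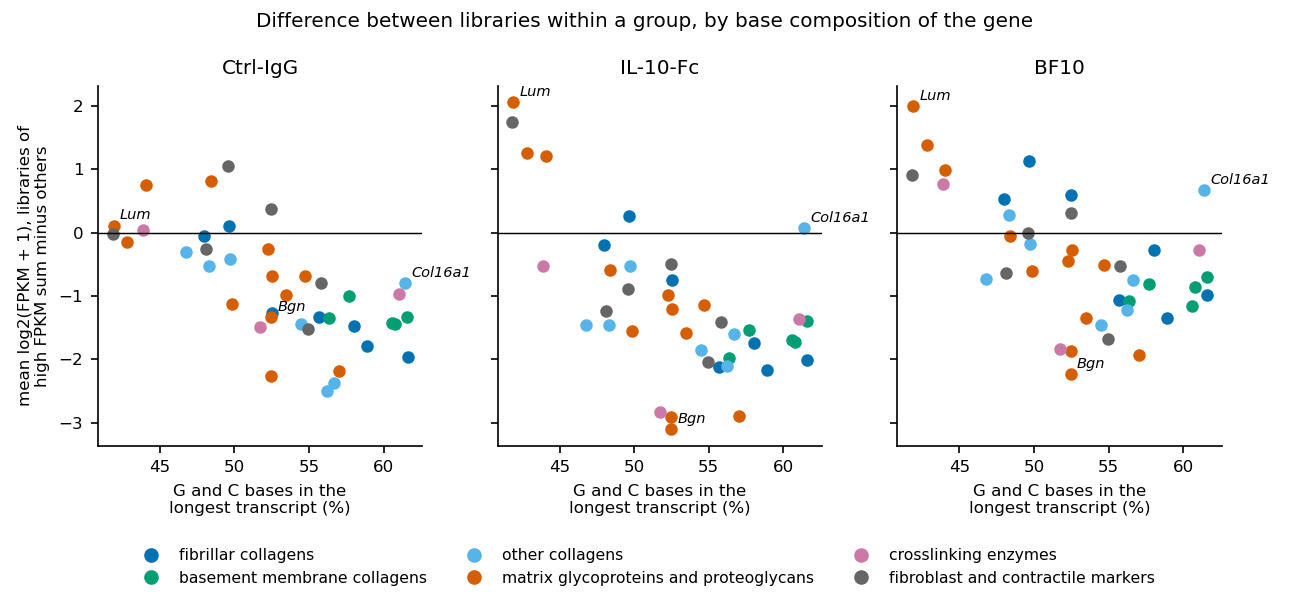
Difference in mean log2(FPKM + 1) between the libraries of high FPKM sum and the other libraries of the same group (vertical axis) against the percentage of G and C bases in the longest transcript (horizontal axis), 1 point for each of the 40 members, coloured by role. Points fall from left to right in all 3 groups, from 2.06 for Lum to -3.11 for Bgn in IL-10-Fc, with Col16a1 above the trend.

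Markers of other tissues moved with some of these values. The 10 keratinocyte markers of stratified epithelium summed to 2098 FPKM in Ctrl-IgG replicate 3 and to 1566 and 2110.0 FPKM in αCSF1R replicates 1 and 2, against 2.49 to 36.8 FPKM in the other 9 libraries. The 12 skeletal muscle markers summed to 1349, 883 and 838 FPKM in the same 3 libraries and to 23.1 to 167 FPKM in the rest, with Myh4 at 0 in 5 libraries of IL-10-Fc and BF10. Ctrl-IgG replicate 3 was both the control with the most muscle and keratinocyte RNA and the one with the highest matrix sum. In αCSF1R, replicate 3 had 123 and 3.33 FPKM of these markers and a matrix sum of 2645 FPKM, between those of replicates 1 and 2. With the log2 muscle sum as a covariate, 26 members were called for BF10 and 23 for IL-10-Fc against Ctrl-IgG, and 19 for BF10 against αCSF1R, where 28.3%, 26.4% and 21% of all genes were called. For αCSF1R against Ctrl-IgG no member was called with this covariate, as was none of all genes (0.0%). The median difference of the members was then 0.517 in place of 0.972, beside 0.0026 in place of 0.1055 over all genes. Whether adjoining tissue contributed matrix RNA was not tested further.

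The 6 markers of simple epithelium summed to 1.08 to 9.27 FPKM in Ctrl-IgG and αCSF1R and to 513 to 1351 FPKM in IL-10-Fc and BF10, on the same side as the collagens. Endothelial markers summed to 27.0 to 61.6 FPKM in Ctrl-IgG, 48.9 to 71.6 FPKM in αCSF1R, 47.6 to 55.2 FPKM in IL-10-Fc and 59.6 to 86.4 FPKM in BF10. Adipocyte markers were at 35.4 to 476 FPKM in IL-10-Fc and 170.4 to 388 FPKM in BF10, against 42.7 to 62.8 FPKM in the other groups. Macrophage markers were at 325 to 594 FPKM in Ctrl-IgG, 199 to 218 FPKM in αCSF1R, 561 to 675 FPKM in IL-10-Fc and 615 to 875 FPKM in BF10. The 8 cartilage and bone markers summed to 0.93 to 8.28 FPKM, with genes listed at 0 in every library, among them Matn1, Sp7 or Acan. Their part in the levels of the members was not tested.

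Other genes of the same pathway, from 4 further lists, were called in part. The counts of all 4 lists stand beside 11.8% of all genes called higher and 13.2% lower under BF10. Under IL-10-Fc these shares were 10.1% and 23.6%. Of 17 genes that process collagen, 3 were called higher under BF10 and none lower, and under IL-10-Fc 2 were higher and 3 lower. Bmp1, the protease that trims procollagen, rose by 2.22 ± 0.48 under BF10 (adjusted p = 0.00678), from 16.2 to 45.1 FPKM in Ctrl-IgG to 113 to 186 FPKM. Loxl3, a further lysyl oxidase, rose by 2.13 ± 0.51 (adjusted p = 0.0102). Pcolce, which enhances Bmp1, fell by 2.41 ± 0.62 under IL-10-Fc (adjusted p = 0.0127), and P4ha2, a prolyl hydroxylase, fell by 2.22 ± 0.58 (adjusted p = 0.0131). Both were also lower under BF10 than under αCSF1R, P4ha2 at 9.77 to 20.3 FPKM against 57.7 to 72.9 FPKM.

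Of 16 laminins and further basement membrane genes tested, 5 were called higher and 2 lower under BF10, and 5 and 3 under IL-10-Fc. The falls included the minor type IV chains Col4a5 and Col4a6, named after their values were seen because the main type IV chains were not called. Col4a5 fell by 0.96 ± 0.26 under BF10 and by 1.05 ± 0.26 under IL-10-Fc (adjusted p = 0.0214 and 0.0107). Col4a6 fell by 0.78 ± 0.17 and 0.82 ± 0.17 (adjusted p = 0.0076 and 0.00479). The rises included Lama3 and Lamb3, laminin chains of the basement membrane under epithelia. Lamb3 was at 10.8 to 25.4 FPKM in BF10 and 0.03 to 2.23 FPKM in Ctrl-IgG, a difference of 3.27 ± 0.75 (adjusted p = 0.00854). Under IL-10-Fc it was 2.66 ± 0.75 (adjusted p = 0.0189). Of 16 elastic fibre genes and small proteoglycans, 4 were called higher and none lower under either agent, led by Ltbp2, a relative of the proteins that store latent TGF-beta, at 3.79 ± 0.86 under BF10 (adjusted p = 0.008) and 3.08 ± 0.86 under IL-10-Fc (adjusted p = 0.0178). Of 14 further fibroblast and mural cell genes, 5 were higher and 1 lower under BF10 and 4 and 1 under IL-10-Fc. Cthrc1, secreted by activated fibroblasts, was at 17.3 to 35.5 FPKM in BF10, 18.8 to 22.1 FPKM in IL-10-Fc and 0.5 to 7.37 FPKM in Ctrl-IgG, with differences of 2.98 ± 0.52 and 2.72 ± 0.52 (adjusted p = 0.00205 and 0.00261). Lrrc15, a marker of the same cells, gave 2.54 ± 0.60 and 2.7 ± 0.60 (adjusted p = 0.00991 and 0.00568). No gene of these 4 lists was called under αCSF1R or between BF10 and IL-10-Fc, where 0.0% and 0.0126% of all genes were called.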

How the data were processed

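Tumour RNA was sequenced in 12 libraries of 4 groups, assigned by the treatment labels. Per the methods, RNA was Trizol-extracted and poly(A)-selected stranded libraries were sequenced. The authors deposited FPKM values per gene and library, and the submitters' processing notes name STAR 2.7.5a, RSEM 1.3.3, DESeq2 1.30.0 and mouse build mm10, without roles. Their tables of DESeq2 comparisons (fold changes and p-values) were not used. Read depth is unknown from FPKM, so no counting intervals are given.

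The 15813 of 55401 genes that reached 1 FPKM in 3 or more libraries were tested on log2(FPKM + 1) with limma 3.58.1 (trend, R 4.3.3), 1 fit over all 12 libraries. Benjamini-Hochberg adjustment was made over all genes within each of the 5 comparisons, and not across the comparisons. Calls required an adjusted p under 0.05 and a fold of at least 1.5. The scripts (Python 3.11.15, pandas 2.3.3, numpy 2.4.6, matplotlib 3.10.9) were tested on simulated data. Transcript length and G and C content came from GENCODE M21, promoters from RefSeq on GRCm38.p6. Alternatives were pseudocount, filters, scalings, covariates, left-out libraries and, added after seeing the data, a G and C correction with and without the 4 libraries of high sum. Any member could be named, and from each other list at most 3 called genes with the largest differences. The members and lists were chosen with earlier results of these data known. One gene of the other lists is not reported by name here.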

Additional observations from a re-analysis of the deposited data

How the results depend on the processing

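Across 19 alternatives, the number of members called for BF10 against Ctrl-IgG stayed between 15 and 33 (22 as reported). The share of all genes tested that was called went from 9.6% to 43.6% (24.9% as reported). No member was called for αCSF1R against Ctrl-IgG or for BF10 against IL-10-Fc, where at most 0.727% of all genes were. For IL-10-Fc against Ctrl-IgG the 21 calls became 10 with the groups fitted alone and 33 with the log2 FPKM sum as a covariate, while the share of all genes called went from 33.7% to 17.3% and 45.2%. The 10 calls for BF10 against αCSF1R became 17 with median-of-ratios scaling, 18 with quantile normalization, 23 with the groups fitted alone and 25 with the FPKM sum as a covariate, where the share of all genes went from 25.0% to 26.1%, 29.6%, 31.8% and 42.6%. They became 19 with the muscle marker sum as a covariate, 19 without the 4 libraries of high sum, 21 after the G and C correction and 22 with both, beside 21%, 40.6%, 32.9% and 39.4% of all genes. Leaving out 1 library at a time gave 16 to 22 calls for BF10 against Ctrl-IgG, beside 16.5% to 23.6% of all genes. For IL-10-Fc against Ctrl-IgG it gave 14 to 22, beside 22.5% to 50.9%. The 50.9% came without IL-10-Fc replicate 3, where 19 of the 40 members were called. For αCSF1R against Ctrl-IgG and BF10 against IL-10-Fc the count stayed at 0. BF10 against αCSF1R gave 5 to 9, beside 15.8% to 21.5%. The lowest counts were 5 without αCSF1R replicate 3 and 6 without αCSF1R replicate 1 or BF10 replicate 2, beside 18.6%, 15.8% and 16.6%. Of single members, Col5a3 under IL-10-Fc turned from -0.09 to 0.59 without the 4 libraries of high sum and to 0.67 with the G and C correction as well, and Col4a1 from -0.00 to 0.68 and 0.82. The cause was not tested. Calls made in every alternative numbered 14 for BF10, 9 for IL-10-Fc and 3 for BF10 against αCSF1R. The 9 for IL-10-Fc were Col3a1, Col5a2, Col7a1, Col8a1, Col12a1, Col16a1, Lum, Tnc and Tagln. The share of all genes called in every alternative was not computed. No paired analysis was possible because the titles share a code, C6, only between 1 library each of αCSF1R, IL-10-Fc and BF10 and none with Ctrl-IgG. A term for the 2 sets of title codes gave 25 and 26 calls for BF10 and IL-10-Fc against Ctrl-IgG and 14 for BF10 against αCSF1R, beside 29.9%, 42.5% and 34.9% of all genes. Depth is unknown from FPKM, and low genes such as Col11a1 rest on levels near the filter.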
